A study of Rattus norvegicus with 16 samples.

Results

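The 10 genes described here form the core of the circadian clock: Per1, Per2, Per3, Cry1, Cry2, Clock, Bmal1, Nr1d1, Nr1d2 and Dbp. They were chosen by symbol from the probe annotation of the array, and each of the 10 had 1 transcript cluster among the 15037 gene symbols measured. The array was the Rat Clariom S, hybridized with diaphragm RNA from 16 male Wistar rats aged 14 to 16 weeks, 1 array per rat and 4 rats per group. In E-V12, rats were mechanically ventilated for 12 h with continuous pulsed stimulation through hook electrodes in the diaphragm. In S-V12, the same abdominal incision and electrodes were used and no current was given. In V12, rats were ventilated for 12 h through a tracheostomy with no abdominal operation, and in CON the diaphragm was taken right after anaesthesia with no ventilation. All ventilated rats were kept under urethane after isoflurane, with atropine, and were warmed by a heating pad. Supplemental oxygen went to the E-V12 and S-V12 rats, so the operation and the oxygen cannot be told apart in their comparison with V12. Likewise, V12/CON holds ventilation, anaesthesia, tracheostomy and the elapsed time together. No source used here gives the time of day at which a diaphragm was taken.

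The clock runs in most cells, skeletal muscle included, as a loop of transcription. CLOCK and BMAL1 pair on E-box sequences and switch on the Per and Cry genes, whose proteins return to the nucleus and block the pair. The same pair switches on Nr1d1 and Nr1d2, which encode the REV-ERB receptors that silence Bmal1 at ROR response elements (ROREs), and Dbp, whose product binds D-boxes in output genes. In a tissue with a running clock, Bmal1 RNA therefore peaks at the opposite phase from Dbp, Per and Nr1d1 RNA. Per1 is also known as an early-response gene that glucocorticoids and cAMP signalling can raise outside the daily cycle.

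The elements of this loop were searched for in the RefSeq promoters of the genes (GRCr8, 250 bases before to 50 bases after a start), on both strands. The letters were CACGTG for the E-box, CACGTT for the E'-box, TTATGTAA or TTACGTAA for the D-box, TAGGTCA or TGGGTCA for the RORE and TGACGTCA for the cAMP element. Of the 10 genes, 9 had 11 promoters in the table, and Cry1 is named only. Only the sequences with a match are shown, which were those of Per2, Cry2, Bmal1 and Nr1d1. Whether a match goes with the changes described below was not tested. Each is the 250 bases before the start, 5′ to 3′ on the gene's own strand, with the matched motif in capitals.
Per2 upstream of the start, chr9:99496994-99497243, minus strand: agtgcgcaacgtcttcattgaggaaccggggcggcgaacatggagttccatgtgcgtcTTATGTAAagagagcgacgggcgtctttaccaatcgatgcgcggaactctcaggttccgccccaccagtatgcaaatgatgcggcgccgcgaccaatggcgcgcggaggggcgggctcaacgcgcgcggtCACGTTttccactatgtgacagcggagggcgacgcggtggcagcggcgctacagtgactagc
Cry2 upstream of the start, chr3:98860438-98860687, minus strand: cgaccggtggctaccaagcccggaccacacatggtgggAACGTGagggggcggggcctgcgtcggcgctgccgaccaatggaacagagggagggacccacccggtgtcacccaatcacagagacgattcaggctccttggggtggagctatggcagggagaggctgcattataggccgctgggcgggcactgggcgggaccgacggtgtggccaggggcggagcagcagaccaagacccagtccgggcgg
Bmal1 upstream of the start, chr1:176766078-176766327, plus strand: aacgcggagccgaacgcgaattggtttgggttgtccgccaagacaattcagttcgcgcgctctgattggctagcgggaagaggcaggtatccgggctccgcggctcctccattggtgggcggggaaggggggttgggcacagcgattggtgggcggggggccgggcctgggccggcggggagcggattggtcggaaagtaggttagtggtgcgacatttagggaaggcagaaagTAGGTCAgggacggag
Nr1d1 outer start, chr10:84231813-84232062, minus strand: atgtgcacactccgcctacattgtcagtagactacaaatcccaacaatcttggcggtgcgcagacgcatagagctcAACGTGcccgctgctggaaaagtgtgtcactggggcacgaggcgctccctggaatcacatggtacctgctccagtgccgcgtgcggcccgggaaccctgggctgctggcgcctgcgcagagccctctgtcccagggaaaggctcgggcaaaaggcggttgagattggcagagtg
Nr1d1 inner start, chr10:84229455-84229704, minus strand: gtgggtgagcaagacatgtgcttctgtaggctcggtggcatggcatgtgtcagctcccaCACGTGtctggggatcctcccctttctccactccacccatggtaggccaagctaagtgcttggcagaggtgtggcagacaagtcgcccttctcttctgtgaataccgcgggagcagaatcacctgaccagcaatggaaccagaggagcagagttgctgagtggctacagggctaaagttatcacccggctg
The Per2 promoter held a D-box 192 bases and an E'-box 62 bases before its start. In Cry2 the E'-box was on the opposite strand, 212 bases before the start. Bmal1 had a RORE 16 bases before its start. Nr1d1 has an outer and an inner annotated start, with an E'-box on the opposite strand 174 bases before the outer one and an E-box 191 bases before the inner one. Over all 33469 promoters of this length, an E-box was found in 6.42%, an E'-box in 4.83%, a D-box in 1.01% and a RORE in 6.6%. The cAMP element, found in 1.83% of all promoters, was not matched in these 11. The Per1 promoter in the table belongs to a start 5374 bases inside the gene, so the sequence before its outermost start was not searched. Per1 spans chr10:54299002-54313804, Dbp chr1:105312256-105317205 and Clock chr14:32262747-32346872 of the same build.

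Signals are given as deposited, on the log2 scale. On each array between 33% and 40.9% of the 23188 clusters exceeded the brightest background entry, a level called background here. All 11 measured skeletal muscle markers were above background in every group. Of the 5 measured liver markers, Alb, Apoa1, Ttr and Serpina1 were above background on no array. Fgb was above it on at least 1 array, but in no group on every array. Among the clock genes, Per1, Cry2, Clock, Nr1d1, Nr1d2 and Dbp were above background on all 16 arrays. Cry1 was above it on 2 arrays of E-V12, 4 of S-V12, 2 of V12 and 2 of CON, and ranged only between 6.03 and 6.94 over all arrays. Per3 fell below background on 1 E-V12, 2 S-V12 and 1 CON array, and Per2 and Bmal1 on 1 CON array each. Since RNA came from pieces of whole muscle, fewer cells of a type and less RNA per cell cannot be told apart.

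CON replicate 1 stood apart from the other CON arrays in these genes. Dbp, the output factor, read 14.02 in CON replicate 1, against 9.60, 8.92 and 9.99 in the other 3 CON arrays. The difference of 4.51 from their mean ranked 1 of 15037 symbols. The next in that ranking were the Per genes. Per2 read 10.02 in CON replicate 1, against 6.53, 7.02 and 7.07. Per1 read 11.87 in CON replicate 1, against 8.999, 9.003 and 8.44. Per3 read 10.06 in CON replicate 1, against 6.57, 7.07 and 7.54. Thus the 4 symbols with the largest excess on this array, of all that were measured, were Dbp, Per2, Per1 and Per3. Bmal1, the activator of opposite phase, read 6.31 in CON replicate 1, below background, against 9.78, 9.84 and 8.49. Only 4 symbols were further below the other CON arrays than Bmal1.

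The remaining genes departed less. Nr1d2, which encodes REV-ERB beta, was 2.20 higher in CON replicate 1 than in the mean of the other 3 CON arrays, and Cry2, a repressor, was 1.32 higher. Nr1d1, which encodes REV-ERB alpha, was 0.69 higher, while Cry1 was 0.62 and Clock 0.75 lower. The median absolute departure of the 10 genes was 2.60 on this array, against 0.326 over all symbols. On the other 3 CON arrays it was 0.43 to 0.92, and on the 12 ventilated arrays 0.17 to 0.45. Nr1d1 and Nr1d2 also spread widely among those 3 CON arrays. Nr1d1 read 12.21, 10.55 and 13.92 in CON replicates 2, 3 and 4, and Nr1d2 read 12.37, 11.55 and 13.34. Replicate 4 was thus the highest for both REV-ERB genes and, at 8.49, the lowest of the 3 for Bmal1.

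**Figure D1:**
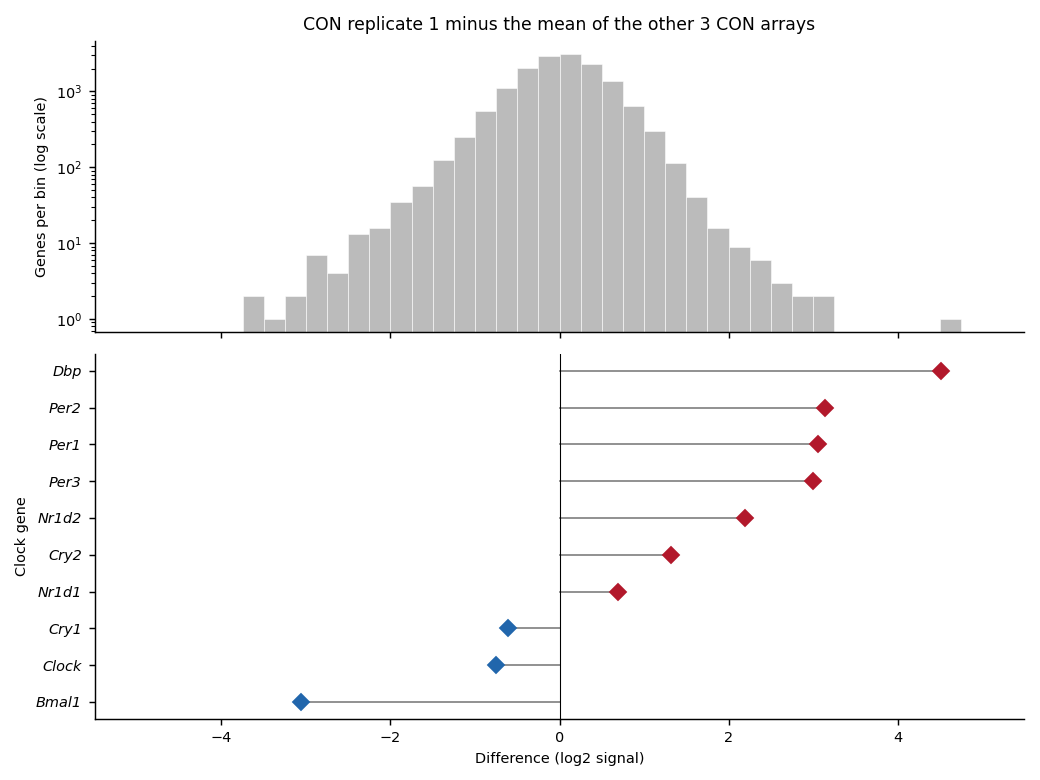
Upper panel, number of gene symbols (log scale) by their log2 signal in CON replicate 1 minus the mean of the other 3 CON arrays. Lower panel, the same difference for each clock gene on the same axis. Dbp at 4.51 lies beyond every other symbol, Per2, Per1 and Per3 follow at 3.14, 3.06 and 2.998, and Bmal1 lies at -3.05.

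Other genes of the clock lists departed on the same array, and those named here were chosen after their values were seen. Usp2, a deubiquitinase of clock proteins, was 2.71 higher in CON replicate 1 than in the mean of the other CON arrays, and Tef, a factor of the same family as Dbp, was 2.42 higher. Ciart, a repressor of CLOCK and BMAL1, was 1.99 higher, and Wee1, a cell-cycle kinase under E-box control, was 1.68 higher. Npas2, which can stand in for CLOCK, was 1.65 lower, Nfil3, which opposes Dbp at D-boxes, was 1.32 lower, and Ucp3, a mitochondrial carrier, was 3.50 lower. Of the 39 listed genes with a cluster of their symbol, 8 were more than 1 higher and 3 more than 1 lower. Over all symbols, 6.7% differed by more than 1 in either direction on this array. On the other CON arrays, each set against the rest of the group, 2.15% to 2.63% did. Markers of several other cell types were also low on this array. The summed adipocyte markers read 9.17 in CON replicate 1, against 11.6 to 12.2 in the other CON arrays, with Lep below background throughout. Fibroblast markers read 14.9, against 16.2 to 16.7, and mesothelium markers 9.39, against 10.8 to 11.8. Skeletal muscle markers read 23.1 in CON replicate 1, against 22.8 to 23.1. The part of these cell types in the clock gene signals was not tested. Because 1 array of 4 carried this profile, the comparisons below were run with all 16 arrays and again without CON replicate 1. Leaving out each array in turn was a planned setting, and giving this array such weight was decided after its values were seen.

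**Figure D2:**
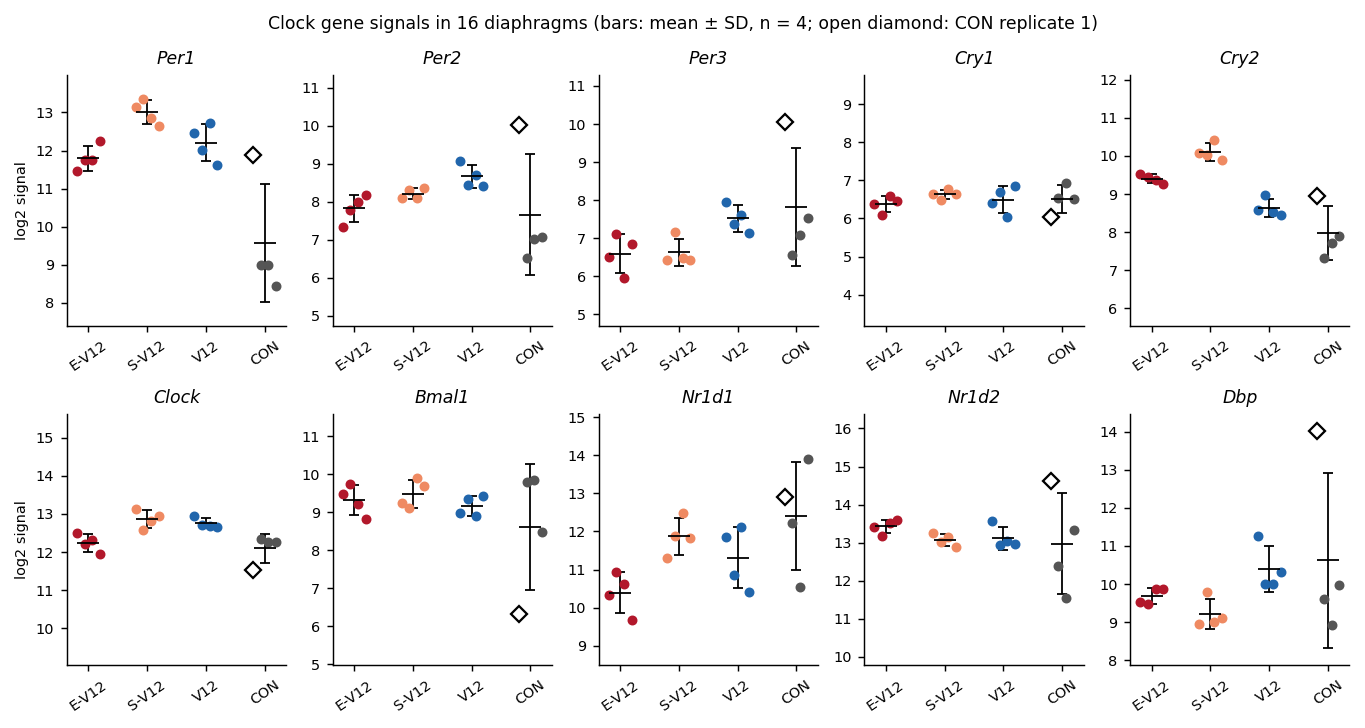
Log2 signal of the 10 clock genes on each array, by group, with mean and SD (n = 4 rats per group); open diamonds mark CON replicate 1, and all panels span the same number of log2 units. CON has the widest bars, with an SD of 2.30 for Dbp, 1.65 for Bmal1 and 1.59 for Per2.

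Between V12 and CON, Per1 rose most and Clock rose less, and the other 8 genes did not pass the test (limma, adjusted p under 0.05 over 23188 clusters). Higher calls made up 7.68% of all clusters and lower calls 8.67%, against 2 of 10 and 0 of 10 clock genes. Per1, the fast-responding repressor, read 12.47, 12.03, 12.71 and 11.61 in V12, against 11.87, 8.999, 9.003 and 8.44 in CON. The groups overlapped only through CON replicate 1. Its log2 change was 2.63 ± 0.47 (SE), a 6.17-fold rise with an adjusted p of 3e-04. Clock, the activator that pairs with BMAL1, read 12.96, 12.71, 12.68 and 12.67 in V12, against 11.54, 12.33, 12.25 and 12.27 in CON, and did not overlap. Its change was 0.66 ± 0.20 (adjusted p = 0.0284), and clusters without overlap made up 16.4% of the array. With the methods' t-test and the same adjustment neither Per1 (adjusted p = 0.128) nor Clock (0.123) passed. Macrophage markers moved in the same comparison, with a summed level of 9.66 to 10.96 in V12, against 8.31 to 9.39 in CON. Of the 6, 3 were higher and 1 lower, and the lower one, Adgre1, was below background throughout. Smooth muscle and pericyte markers read 10.2 to 11.2 in V12, against 10.54 in CON replicate 1 and 11.5 to 12.0 in the other CON arrays. Of the 5, 2 were lower, Tagln by -2.04 (adjusted p = 0.000163) and Myh11 by -1.15 (0.00478), and Cnn1 was below background throughout. Of the 4 red blood cell markers, Hbb was lower, at -1.76 (adjusted p = 0.036). Higher were 1 of 6 endothelium markers and 1 of 4 adipocyte markers. The part of these cells was not tested.

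Without CON replicate 1, the same comparison gave 4 higher genes and 0 lower, where higher calls were 7.63% and lower calls 8.27% of the array. Per1 was then 3.39 ± 0.26 higher (adjusted p = 5.39e-09), and its groups no longer overlapped. Per2, the repressor with both an E'-box and a D-box above, read 9.08, 8.45, 8.71 and 8.42 in V12, against 10.02, 6.53, 7.02 and 7.07 in CON. The V12 arrays lay between CON replicate 1 and the other CON arrays. Its change was 1.01 ± 0.46 with all arrays (adjusted p = 0.158) and 1.79 ± 0.23 without that array (adjusted p = 6.68e-06). Cry2 read 8.59, 8.98, 8.54 and 8.45 in V12, against 8.96, 7.31, 7.72 and 7.89 in CON, where replicate 1 alone reached the V12 arrays. Its change was 0.67 ± 0.26 with all arrays (adjusted p = 0.0798) and 1.0 ± 0.20 without CON replicate 1 (adjusted p = 0.00127).

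Dbp read 11.27, 9.998, 10.01 and 10.31 in V12, against 14.02, 9.60, 8.92 and 9.99 in CON. All V12 arrays were below CON replicate 1 and above the other 3. The sign of its change depended on that array, at -0.23 ± 0.65 with it (adjusted p = 0.871) and 0.90 ± 0.30 without it (adjusted p = 0.0442). The call for Clock ended in turn, at 0.47 ± 0.19 (adjusted p = 0.108). Bmal1 read 8.97, 9.34, 8.90 and 9.44 in V12, against 6.31, 9.78, 9.84 and 8.49 in CON. Its change was 0.56 ± 0.48 with all arrays and -0.21 ± 0.30 without CON replicate 1, and neither passed the test. Nr1d1 read 11.86, 10.85, 12.12 and 10.42 in V12, against 12.92, 12.21, 10.55 and 13.92 in CON, where replicate 3 was the low array. Its change of -1.09 ± 0.49 did not pass the test (adjusted p = 0.151), and leaving out CON replicate 3 made it -1.70 ± 0.42 (adjusted p = 0.00729).

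**Figure D3:**
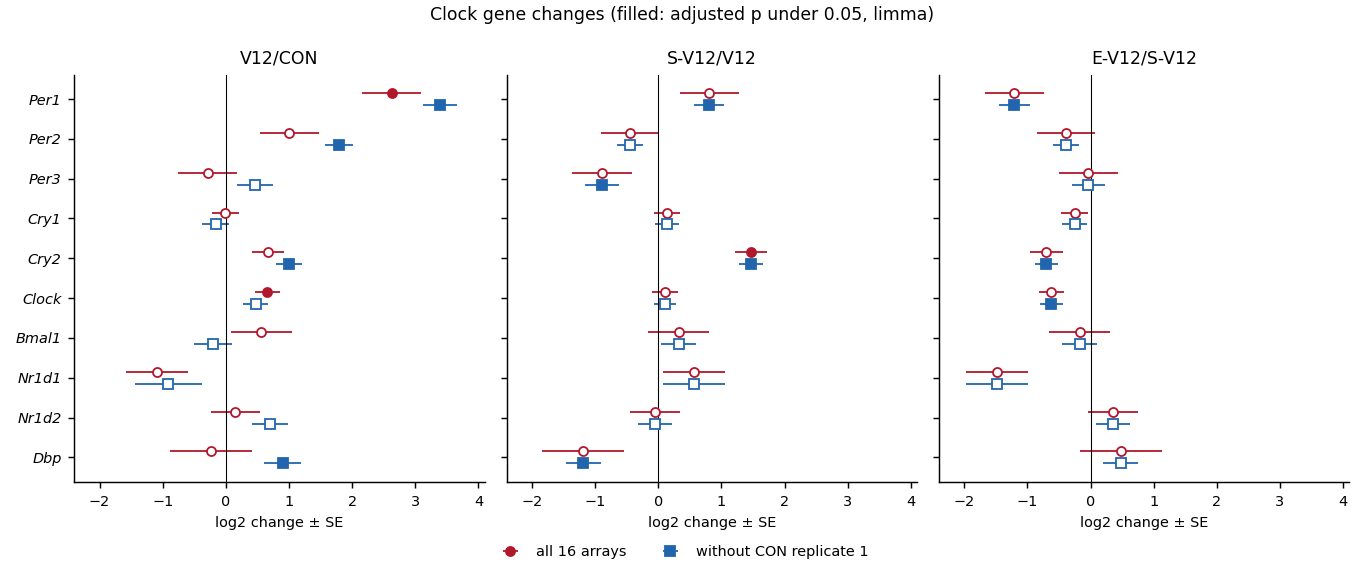
Log2 change ± SE of the 10 clock genes in the 3 comparisons of the study, from limma with all 16 arrays (circles) and without CON replicate 1 (squares); filled symbols passed an adjusted p of 0.05. Without that array Per1 in V12/CON moves outward to 3.39, Dbp changes sign, and the error bars shorten for most genes in all panels, since the groups share their variance.

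Between S-V12 and V12, Cry2 was the gene that rose. It read 10.08, 10.03, 10.42 and 9.88 in S-V12, against 8.59, 8.98, 8.54 and 8.45 in V12, with no overlap. The change was 1.46 ± 0.26, a 2.76-fold rise with an adjusted p of 0.000395, and 98% of all clusters had a smaller absolute change. That was 1 of 10 genes higher and 0 lower, where 8.05% of all clusters were higher and 6.66% lower. Clusters whose groups did not overlap made up 19.8% of the array, and Cry2, Per2 and Dbp were among them. The summed red blood cell markers read 12.1 to 14.0 in S-V12, against 14.5 to 15.8 in V12, with 1 of 4 lower and Alas2 and Slc4a1 below background throughout. Of the other cell types, 1 of 6 macrophage markers (Itgam, at 1.55) and 1 of 5 fibroblast markers were higher. Lower were 1 of 4 adipocyte and 1 of 11 skeletal muscle markers. The part of these cells was not tested.

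Of the CON arrays, this comparison uses only their share in the common variance. Leaving out CON replicate 1 kept each change as it was and gave 2 higher and 2 lower genes, where 8.93% of all clusters were higher and 7.65% lower. Per1 read 13.16, 13.37, 12.86 and 12.66 in S-V12, against 12.47, 12.03, 12.71 and 11.61 in V12, with 1 array of each group overlapping. Its change of 0.81 had an SE of 0.47 with all arrays (adjusted p = 0.285) and 0.24 without CON replicate 1 (adjusted p = 0.0257). Dbp went the other way, reading 8.95, 9.79, 9.01 and 9.10 in S-V12, against 11.27, 9.998, 10.01 and 10.31 in V12. The groups did not overlap, and the change of -1.19 had an adjusted p of 0.254 with all arrays and 0.00429 without CON replicate 1. Per3, a period gene that is dispensable for the rhythm in mice, read 6.43, 7.15, 6.49 and 6.44 in S-V12, against 7.95, 7.38, 7.62 and 7.13 in V12. Its change of -0.89 had an adjusted p of 0.233 with all arrays and 0.0221 without CON replicate 1, with 2 of the S-V12 arrays below background. A fit on the 12 ventilated arrays alone, added after the spread of CON was seen, called the same 4 genes in the same directions, where 9.02% of all clusters were higher and 7.62% lower. Bmal1, Clock, Nr1d1, Nr1d2, Cry1 and Per2 did not pass the test in any of these 3 fits, with changes between -0.45 and 0.56.

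Between E-V12 and S-V12, no clock gene passed the test with all arrays (limma), where 2.71% of all clusters did. The methods' t-test with adjusted p also called 0, and 2.26% of all clusters. At an unadjusted p under 0.05 there were 4, all lower: Nr1d1, Per1, Cry2 and Clock. Of all clusters, 16.6% had such a p, and 8.84% had it and were lower. These were also the 4 genes whose groups did not overlap, which held for 13.5% of all clusters. Per1 and Nr1d1 are among the genes that the study itself selected for this comparison on the same arrays, so their values here are not independent of that choice. Nr1d1 read 10.34, 10.93, 10.61 and 9.67 in E-V12, against 11.30, 11.88, 12.49 and 11.82 in S-V12. Its change was -1.48 ± 0.49 (adjusted p = 0.105), a signal 2.80-fold lower, with a 95% interval of -2.50 to -0.46. Per1 read 11.46, 11.75, 11.75 and 12.25 in E-V12, against 13.16, 13.37, 12.86 and 12.66 in S-V12. Its change was -1.21 ± 0.47 (adjusted p = 0.178). By the rule of the study's methods, a fold of 2 with an unadjusted p under 0.05, both counted as lower, as did 1.01% of all clusters. Red blood cell markers also differed between these groups, at 14.8 to 16.3 in E-V12, against 12.1 to 14.0 in S-V12, with 2 of 4 higher. Of the 6 endothelium markers 1 was lower, Pecam1 at -1.08 (limma, adjusted p = 0.0322). The part of these cells was not tested.

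Cry2 read 9.53, 9.45, 9.37 and 9.27 in E-V12, against 10.08, 10.03, 10.42 and 9.88 in S-V12, a change of -0.70 ± 0.26 (adjusted p = 0.149). Clock read 12.50, 12.21, 12.32 and 11.94 in E-V12, against 13.13, 12.57, 12.82 and 12.94 in S-V12, a change of -0.62 ± 0.20 (adjusted p = 0.102). Every E-V12 array was thus below every S-V12 array for Clock, Per1, Cry2 and Nr1d1. The groups overlapped for Bmal1 (-0.17), Per2 (-0.38), Per3 (-0.03), Cry1 (-0.25), Nr1d2 and Dbp. Without CON replicate 1, Per1 (adjusted p = 0.00596), Cry2 (0.0332) and Clock (0.0462) passed the test and Nr1d1 did not (0.0878), where 2.83% of all clusters were lower. The fit on the 12 ventilated arrays called Per1 (adjusted p = 0.00874), Cry2 (0.0284) and Nr1d1 (0.0197), where 2.97% of all clusters were lower, and Clock was not called. Nr1d2 and Dbp were the genes with positive changes, at 0.35 ± 0.39 and 0.48 ± 0.65, and neither passed the test in any of these fits.

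Compared with V12, E-V12 diaphragms had higher Cry2 and lower Per2 and Per3 in the fit without CON replicate 1. With all arrays limma called no clock gene, where 8.56% of all clusters were called, and the methods' t-test at its own thresholds called none either. The methods' t-test with adjusted p and no limit on the fold called Cry2 (adjusted p = 0.0374) and 3.8% of all clusters. At an unadjusted p under 0.05 there were 2 of 10, Cry2 higher and Clock lower, a share close to the 21.3% of all clusters with such a p. Cry2 was 0.77 ± 0.26 higher in E-V12 than in V12 (adjusted p = 0.0666), with no overlap. Per2 read 7.35, 7.79, 7.99 and 8.19 in E-V12, against 9.08, 8.45, 8.71 and 8.42 in V12. The change of -0.83 had an adjusted p of 0.318 with all arrays and 0.0125 without CON replicate 1. Per3 was 0.92 lower, with an adjusted p of 0.269 with all arrays and 0.0273 without CON replicate 1. In this comparison 5 of 10 genes had groups that did not overlap, against 14.8% of all clusters, and with CON replicate 1 left out 5.41% of all clusters were higher and 4.64% lower. Of the cell type markers, 1 of 6 for endothelium (Pecam1) was lower with all arrays. Higher were 1 of 6 for macrophages, 1 of 5 for fibroblasts, 1 of 4 for neutrophils and 1 of 4 for red blood cells. The part of these cells was not tested.

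Against CON, Per1 was higher in each ventilated group, at 2.22 in E-V12, 3.43 in S-V12 and 2.63 in V12 (SE 0.47 each), with adjusted p of 0.000991, 6.42e-06 and 3e-04 in that order. Without CON replicate 1 these changes were 2.98, 4.19 and 3.39. These 3 comparisons share the CON arrays. Cry2 was 1.44 higher in E-V12 (adjusted p = 0.000166) and 2.13 higher in S-V12 (adjusted p = 1.04e-06). Clock was 0.77 higher in S-V12 (adjusted p = 0.00676) and 0.15 ± 0.20 in E-V12, which did not pass. Nr1d1 was 2.01 lower in E-V12 (adjusted p = 0.00377), and 1.84 lower without CON replicate 1 (adjusted p = 0.0139). With the methods' t-test and adjusted p, the calls of Clock in S-V12 (adjusted p = 0.0677) and of Per1 (0.127) and Nr1d1 (0.144) in E-V12 were lost. Limma with all arrays called 2 higher and 1 lower of 10 in E-V12/CON, against 10.9% and 12.6% of all clusters. In S-V12/CON limma called 3 higher and 0 lower, against 12.0% and 12.8% of all clusters. Summed macrophage markers read 10.38 to 11.5 in E-V12 and 10.36 to 11.6 in S-V12, against 8.31 to 9.39 in CON, with 4 of 6 higher in each. Of the smooth muscle and pericyte markers 3 of 5 were lower in E-V12 and 2 of 5 in S-V12, and of the endothelium markers 3 of 6 were lower in E-V12 and 1 of 6 higher in S-V12. Fibroblast markers split, with 2 of 5 higher and 3 lower in E-V12 and, in S-V12, 2 higher and 1 lower. Neutrophil markers were higher for 2 of 4 in E-V12 and 1 of 4 in S-V12. In S-V12, 2 of 4 red blood cell and 1 of 11 skeletal muscle markers were lower. The part of these cells in the clock gene changes was not tested. Without CON replicate 1, Per2 joined the higher genes in both, at 0.96 in E-V12 and 1.34 in S-V12. Nr1d2 joined them in E-V12 as well, at 1.0 ± 0.29 (adjusted p = 0.0139). The counts were then 4 higher and 1 lower in E-V12/CON, against 10.8% and 12.0% of all clusters, and 4 higher and 0 lower in S-V12/CON, against 12.3% and 12.8%.

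By group mean, Per1 signal was highest in S-V12 at 13.01 ± 0.31, then 12.20 ± 0.49 in V12, 11.80 ± 0.33 in E-V12 and 9.58 ± 1.55 in CON (SD, n = 4). With all arrays, the neighbours S-V12 and V12, and E-V12 and V12, did not pass the test for Per1. Cry2 signal was 10.10 ± 0.23 in S-V12, 9.40 ± 0.11 in E-V12, 8.64 ± 0.23 in V12 and 7.97 ± 0.71 in CON. No pair of neighbours in this order passed the test for Cry2 with all arrays, although the 3 ventilated groups did not overlap. Nr1d2 lay at 13.43 ± 0.18 in E-V12, 13.07 ± 0.16 in S-V12, 13.12 ± 0.30 in V12 and 12.97 ± 1.32 in CON. Bmal1 lay at 9.31 ± 0.40 in E-V12, 9.48 ± 0.37 in S-V12, 9.16 ± 0.27 in V12 and 8.60 ± 1.65 in CON. Levels of different genes are not compared, since each cluster has its own probes.

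Genes that act on the clock were described from 8 lists, of which 39 of 49 genes had a cluster with their symbol. V12/CON had 7 of the 39 higher and 5 lower, where 7.68% and 8.67% of all clusters were called. For S-V12/V12 these counts were 7 and 2, where 8.05% and 6.66% of all clusters were called. E-V12/S-V12 had 1 lower gene and 0 higher, where 2.71% of all clusters were called in either direction. Their median changes were 0.07, 0.09 and -0.10, beside medians over all clusters of 0.03, -0.05 and 0.02. The lower gene in E-V12/S-V12 was Gsk3a, a kinase that phosphorylates clock proteins, at -0.73 ± 0.19 (adjusted p = 0.0446), and it was named after its value was seen. Without CON replicate 1 the counts were 8 and 4 in V12/CON, where 7.63% and 8.27% of all clusters were called, and 8 and 2 in S-V12/V12, where 8.93% and 7.65% were. They were 0 and 2 in E-V12/S-V12, where 2.83% of all clusters were lower.

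Output and accessory genes held the largest changes in V12/CON. Pdk4, which restrains glucose oxidation in muscle, read 19.25, 19.27, 19.31 and 19.28 in V12, against 14.50, 15.98, 15.21 and 14.52 in CON. The change was 4.23 ± 0.25 (adjusted p = 3.6e-11), with no overlap. The V12 readings lay near 19.93, the highest value of any cluster on any array, which limits what the size of this change can show. Nfil3, the D-box repressor that opposes Dbp, read 11.06, 11.77, 11.84 and 12.05 in V12, against 7.17, 9.17, 9.01 and 7.27 in CON. It rose by 3.52 ± 0.35 (adjusted p = 1.77e-07) with no overlap, while Dbp on the same arrays did not pass the test. Without CON replicate 1 both were higher, Nfil3 by 3.19 ± 0.34 (adjusted p = 5.93e-07) and Dbp by 0.90 ± 0.30 (adjusted p = 0.0442). Nampt, the rate-limiting enzyme of NAD salvage and a clock target, fell by 1.88 ± 0.18 (adjusted p = 8.73e-08), and Parp1, which uses NAD, fell by 0.98 ± 0.18 (adjusted p = 0.000378). Por and Coq10b, which take part in electron transfer, rose by 1.43 ± 0.28 and 1.41 ± 0.34, with adjusted p of 0.00091 and 0.00504. Ciart rose by 1.11 ± 0.36 (adjusted p = 0.0356) with all arrays and by 1.61 ± 0.27 without CON replicate 1. Ppp5c, of the list of kinases and phosphatases, was lower (adjusted p = 0.00288 with all arrays). Its change without CON replicate 1 was -0.73 ± 0.19 (adjusted p = 0.0114).

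In S-V12/V12 Csnk1e, Csnk1a1 and Csnk1d, casein kinase 1 isoforms that phosphorylate clock proteins, rose by 0.96 ± 0.23, 0.93 ± 0.20 and 0.63 ± 0.18, with adjusted p of 0.006, 0.00294 and 0.0175. Csnk2b, the regulatory subunit of casein kinase 2, read 11.69, 11.83, 11.70 and 11.43 in S-V12, against 12.99, 12.80, 12.87 and 13.20 in V12, and fell by 1.30 ± 0.20 (adjusted p = 8.56e-05). The list of kinases and phosphatases had 4 of 9 genes higher and 1 lower, where 8.05% and 6.66% of all clusters were called, with a median change of 0.51 beside -0.05 over all clusters. No test of this list was made. The other higher one was Gsk3b at 0.74 ± 0.23, and Csnk1e and Gsk3b were named after their values were seen. Bhlhe40, a repressor that competes for E-boxes, read 12.45, 13.02, 13.25 and 13.14 in S-V12, against 12.22, 11.87, 11.21 and 12.19 in V12. It rose by 1.09 ± 0.28 (adjusted p = 0.00909). Lonrf3, of the list of outputs, had a change of 1.37, and Tipin, of the list of modulators, one of -0.84. Their adjusted p with all arrays were 0.0031 and 0.00531.

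**Figure D4:**
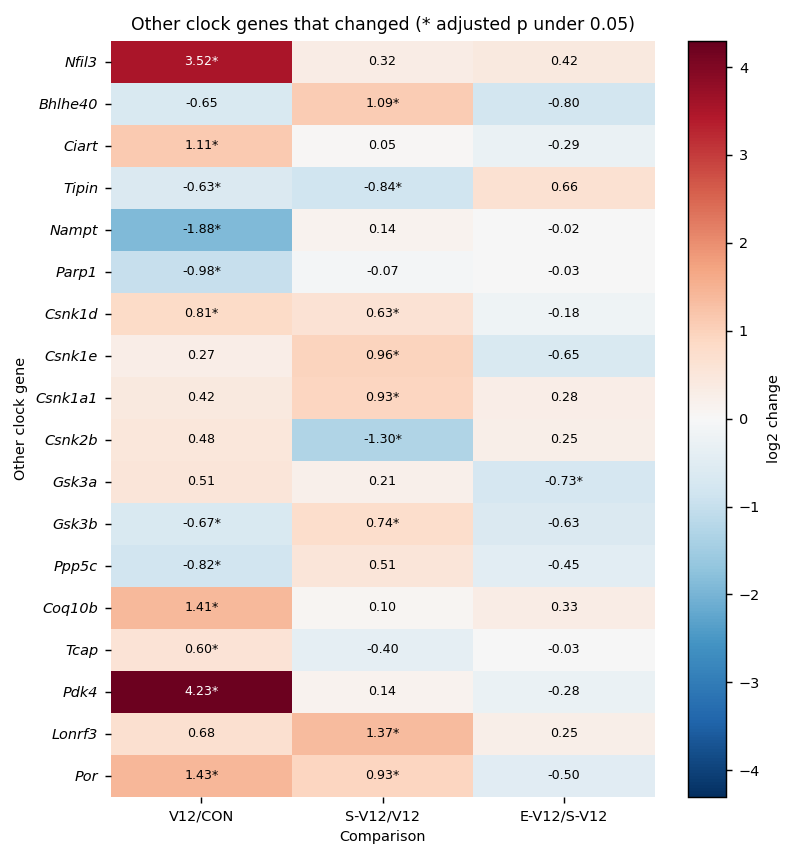
Log2 changes of the listed clock-related genes, outside the 10 core genes, that passed an adjusted p of 0.05 in V12/CON, S-V12/V12 or E-V12/S-V12 (columns); asterisks mark the comparison in which a gene passed. Pdk4 and Nfil3 hold the largest values, 4.23 and 3.52 in V12/CON, and Gsk3a holds the asterisk in E-V12/S-V12.

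The genes with the most similar pattern over the 16 arrays were found by root mean square distance between deviations from each gene's own mean, over 15027 symbols outside the core genes. This is a description, and the arrays are shared by all genes. Nearest to Per1 were Glul, glutamine synthetase, at 0.594 and Dgat2, a triglyceride synthesis enzyme, at 0.614. Per2 was nearest to Ccnt2 at 0.427, with Acacb the second at 0.486 and the clock repressor Ciart the third at 0.492. Per3 was nearest to Myo18a at 0.458, with Svil the second at 0.465 and Tef the third at 0.475. Tef was also the second nearest to Dbp at 0.740, after Myh7b at 0.646. Ciart and Tef, like Per2, Per3 and Dbp, were far higher in CON replicate 1, and distances without that array were not computed. The closest genes to Cry2 were Siah2, a ubiquitin ligase, at 0.203 and Faf2 at 0.244. Nr1d1 was closest to Coro6 at 0.567, Bmal1 to Ccl21 at 0.496 and Nr1d2 to Ggnbp1 at 0.374. Clock was closest to Necab3 at 0.227 and Cry1 to Btnl3 at 0.156. Within the core genes, the nearest pair was Cry1 and Clock at 0.378, which both vary little, followed by Per3 and Dbp at 0.547 and by Per2 and Nr1d2 at 0.608.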

How the data were processed

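Each of the 16 Clariom S arrays was hybridized with the diaphragm RNA of 1 rat. The values deposited by the authors are log2 signals of transcript clusters, normalized by SST-RMA in Transcriptome Analysis Console, and they were not normalized again. Of 24834 table entries, 1646 were control entries and were left out, which left 23188 clusters, 15049 with 1 gene symbol and 8139 with none. For a symbol with several clusters the one of highest mean signal was used, and each clock gene had 1. Gene symbols came from the platform annotation, and positions and promoters from RefSeq (GRCr8).

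A model with 4 group means was fitted to every cluster in limma 3.58.1 (R 4.3.3), with moderated variances, two-sided p-values and Benjamini-Hochberg adjustment over the 23188 clusters of a comparison. The methods stated a t-test at a fold of 2, which was run as an alternative. Fold changes are differences of mean log2 signals. The model was tested on simulated data. A signal was called above background where it exceeded the highest of 23 background entries on its array. The number of arrays limits the precision, and each p-value measures the spread between rats.

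Named genes were all 10 clock genes, up to 4 genes per clock list with the smallest adjusted p under 0.05 in the study's 3 comparisons, and for each clock gene the 3 genes of smallest distance, of which a selection is printed. Other genes are named as chosen after their values were seen. The clock genes and all lists were chosen with earlier results of these data known. Listed genes whose symbol no cluster carried in the annotation used (10 of 49, among them Rora, Hlf and Sirt1) were not analysed here. The array may still measure them through clusters without a symbol, and the paper reports a rise of Sirt1 in V12/CON. The alternatives were other call rules, the methods' t-test, limma on the compared groups only, array weights, trended and robust variances, a filter on the 25% dimmest clusters, 1 cluster per symbol, median centring or quantile normalization of the arrays, omission of each array, the replicate number as a block, and, added after the spread of the CON arrays was seen, the 12 ventilated arrays alone.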

Additional observations from a re-analysis of the deposited data

Results flagged for a closer look

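Of the 40 combinations of a clock gene and a group, 6 held an array that lay farther from the others than Dixon's 95% critical value for 4 samples allows, where chance alone gives about 1 in 20. In CON, replicate 1 was such an array for Per1 at 11.87, for Per2 at 10.02 and for Clock at 11.54, high in the Per genes and low in Clock. In V12, replicate 1 was such an array for Clock at 12.96 and for Nr1d2 at 13.57, the highest of the group in both. In S-V12, replicate 2 was such an array for Per3 at 7.15, and the other 3 arrays read 6.43 to 6.49. Dbp, at 14.02 in CON replicate 1, and Bmal1, at 6.31, did not pass this criterion.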

How the results depend on the processing

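The counts of clock genes called were 2 in V12/CON, 1 in S-V12/V12, 0 in E-V12/S-V12, 0 in E-V12/V12, 3 in S-V12/CON and 3 in E-V12/CON. In V12/CON the count was 1 with an added fold of 2, with the methods' t-test at its own thresholds, with limma on the compared groups only and with array median centring, and 0 with the adjusted t-test. Of all clusters, 7.84% were called there with the added fold, 7.62% with the t-test at its own thresholds and 16.2% with median centring. In S-V12/V12 the count was 2 with the methods' t-test at its own thresholds (6.16% of all clusters). It was 4 with the compared groups only and with the 12 ventilated arrays (16.6% with the latter). In E-V12/S-V12 the count was 2 with a fold of 2 and an unadjusted p (1.89% of all clusters). It was also 2 with the methods' t-test at its own thresholds (1.81%). With the compared groups only it was 3, with the ventilated arrays 3 and with array weights 4. The share of all clusters called in E-V12/S-V12 moved as well, at 2.71% in the fit reported, 5.68% with the compared groups only, 5.31% with the ventilated arrays and 6.65% with array weights. With the compared groups only it was 12.6% in V12/CON, against 16.3% in the fit reported, 15.4% against 14.7% in S-V12/V12 and 8.24% against 8.56% in E-V12/V12. With the adjusted t-test it was 6.39% in V12/CON, 3.8% in E-V12/V12 and 15.2% in E-V12/CON, against 16.3%, 8.56% and 23.5%. In E-V12/V12 the count was 1 with the adjusted t-test and 1 with array weights (10.1% of all clusters). It was 3 there with the compared groups only and 3 with the ventilated arrays (9.91%). In E-V12/CON the count was 1 with the adjusted t-test. With each array left out in turn, the counts ran from 1 to 4 both in V12/CON and S-V12/V12, from 0 to 3 in E-V12/S-V12 and in E-V12/V12, from 3 to 4 in S-V12/CON and from 3 to 5 in E-V12/CON. The highest count of the range came without CON replicate 1 in each case, and in S-V12/CON also without CON replicate 2 or replicate 3. The count in V12/CON was 1 without V12 replicate 1 or replicate 2, that in E-V12/S-V12 was 1 without CON replicate 3 and that in E-V12/V12 was 1 without CON replicate 2.

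Of 1710 values of single genes under these settings, 1605 kept their direction and their side of the threshold, 17 lost a call, 57 gained one and 31 turned direction. Over the 60 values without CON replicate 1, 38 were kept, 1 was lost, 14 were gained and 7 turned. The call of Per1 in V12/CON was lost with the adjusted t-test (adjusted p = 0.128), as were those of Clock in S-V12/CON (0.0677) and of Per1 (0.127) and Nr1d1 (0.144) in E-V12/CON. The call of Clock in V12/CON was lost with the adjusted t-test, the compared groups only, array weights, array median centring, and on leaving out either of V12 replicates 1 and 2 or CON replicate 1, at adjusted p of 0.0513 to 0.123. Apart from arrays left out, direction turned for Dbp in V12/CON (0.13 with array weights), Nr1d2 in S-V12/V12 (0.022 with array median centring) and Per3 in E-V12/S-V12 (0.011 with quantile normalization), and the cause was not tested. With an array left out, the values whose sign turned ran in V12/CON from -0.70 to 0.46 for Per3, -0.16 to 0.15 for Cry1, -0.21 to 0.97 for Bmal1, -0.33 to 0.70 for Nr1d2 and -0.80 to 0.90 for Dbp. They ran in S-V12/V12 from -0.016 to 0.26 for Cry1 and -0.11 to 0.10 for Nr1d2, in E-V12/S-V12 from -0.20 to 0.18 for Per3 and in E-V12/V12 from -0.27 to 0.0093 for Cry1. In S-V12/CON they ran from -0.024 to 0.27 for Cry1 and -0.37 to 0.65 for Nr1d2. In E-V12/CON they ran from -0.20 to 0.96 for Per2, -0.27 to 0.023 for Cry1, -0.042 to 0.25 for Clock, -0.053 to 1.12 for Bmal1, -0.022 to 1.0 for Nr1d2 and -1.51 to 0.19 for Dbp. Correlations of same-numbered arrays were small, from -0.09 to 0.11 over 24 pairs, and no pairing was used in the fit reported. In V12/CON they ran from 0.02 to 0.11, and each was the highest for its V12 array. These values cannot exclude a link between same-numbered CON and V12 rats, which was not tested. The replicate block left the 6 counts at 2, 1, 0, 0, 3 and 3. Cry1 and Per3 lay near background on several arrays, which limits what their signals can show.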
